A study of Mus musculus with 18 samples.

Results

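The circadian clock genes are described here in mouse spleen: 10 genes chosen by name, Arntl, Clock, Per1, Per2, Per3, Cry1, Nr1d1, Nr1d2, Dbp and Tef, out of 55385 genes in the deposited tables. All 10 passed the filter on low counts, as did 18634 genes in all. Poly(A) RNA was sequenced from 18 spleens of adult mice in 3 genotypes, with 6 libraries each, 3 from males and 3 from females. WT mice were C57BL/6J. Dp16 mice carry an extra copy of a stretch of chromosome 16 with many genes that lie on chromosome 21 in humans, and are used as a model of trisomy 21. Dp16_2xIFNRs mice carry the same extra stretch with the dosage of its interferon receptor genes set back to normal. The labels list no treatment, and their age values of 17.1 to 18.0, which are tagged as days post conception, are not interpreted here. The hour at which the spleens were taken is not given in the sources used here, and neither is the strain background of the Dp16 lines. The sample descriptions also hold a letter T with a number, whose meaning is not stated and which is not interpreted here. None of the 10 genes lies on chromosome 16, so the extra stretch does not change their copy number.

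The circadian clock is a feedback loop of transcription that runs in nearly every cell and is set by light, feeding and hormones. ARNTL (also called BMAL1) and CLOCK bind as a pair to E-box sequences and activate the Per, Cry, Nr1d, Dbp and Tef genes. PER and CRY proteins then block the pair, and the nuclear receptors NR1D1 and NR1D2 (REV-ERB alpha and beta) repress Arntl, so that Arntl RNA is high at about the time of day when Nr1d1 and Dbp RNA are low. DBP and TEF, with HLF, are transcription factors of the PAR bZIP family that pass the rhythm on through D-box sequences. In the spleen, lymphocytes and myeloid cells have clocks of their own.

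The sequences below show where the 250 bases before the annotated starts of these genes hold a clock motif, and they are given because the genes that carry different motifs are compared in their levels further on. They come from RefSeq (GRCm38.p6), which gave a window for 9 of the 10 genes, all but Per2, with more than 1 start for some. The E-box was searched as CACGTG, the D-box as TTATGTAA and the ROR element, bound by the NR1D receptors, as TAGGTCA or TGGGTCA, each on both strands. The capitals mark the motif, and each sequence reads in the direction of its gene.
Per3, D-boxes, chr4:151044796-151044890, minus strand, upstream: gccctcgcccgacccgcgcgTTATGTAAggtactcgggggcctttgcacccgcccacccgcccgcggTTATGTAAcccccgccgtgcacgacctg
Cry1, E-box, chr10:85185089-85185134, minus strand, upstream: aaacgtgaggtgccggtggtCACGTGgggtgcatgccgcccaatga
Per1, E-box, chr11:69098763-69098808, plus strand, in an intron of a longer transcript: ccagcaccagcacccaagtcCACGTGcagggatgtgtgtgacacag
Tef, E-box, chr15:81802535-81802562, plus strand, in a UTR of another transcript: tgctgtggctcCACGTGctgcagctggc
Tef, E-box, chr15:81811256-81811301, plus strand, in an intron of a longer transcript: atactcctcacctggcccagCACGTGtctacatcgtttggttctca
Per3 held 2 D-boxes in its single window, where 0.977% of 27025 genes held any. An E-box was found in Cry1, Per1 and Tef, where 6.86% of genes held one, and no ROR element was found, against 6.15% of genes. The windows of Arntl, Clock, Nr1d1, Nr1d2 and Dbp held none of these letters. A match is a description of the sequence and does not show that a factor bound there.

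In WT spleen, levels per length (RPKM, counts scaled to gene length and library total) ran from Dbp, at 18.4 ± 5.87 (SD, n = 6), through Per1 at 13.0 ± 3.63, Nr1d1 at 10.7 ± 3.41, Tef at 8.16 ± 1.32, Nr1d2 at 7.58 ± 1.63, Arntl at 6.59 ± 1.32 and Cry1 at 6.33 ± 1.15, down to Clock at 2.71 ± 0.43, Per2 at 1.85 ± 0.33 and Per3 at 1.26 ± 0.25. Most neighbours in this order overlapped in their ranges over the 6 libraries. The gap between Cry1, whose lowest WT library was at 4.12 RPKM, and Clock, whose highest was at 3.30, was the exception. In Dp16 the order began with Dbp (10.4 ± 4.00) and Per1 (10.3 ± 1.58), which overlapped, and in Dp16_2xIFNRs with Per1 (10.7 ± 3.86) and Dbp (10.6 ± 5.83). Per3 was lowest in both, at 0.748 ± 0.10 and 0.945 ± 0.070.

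Libraries of 1 genotype differed most in Nr1d1 and Dbp. The highest WT library held 2.96 times the Nr1d1 of the lowest, with 3.25 times in Dp16 and 3.71 times in Dp16_2xIFNRs, and for Dbp these ratios were 2.41, 2.68 and 3.56. The ratios for Clock and Tef stayed between 1.29 and 1.45 in the 3 genotypes. The size of a difference that the test below could call therefore varied between the genes: the standard error of the log2 fold change from Dp16 to WT was 0.10 for Tef and 0.34 for Nr1d1 and Dbp.

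**Figure D1:**
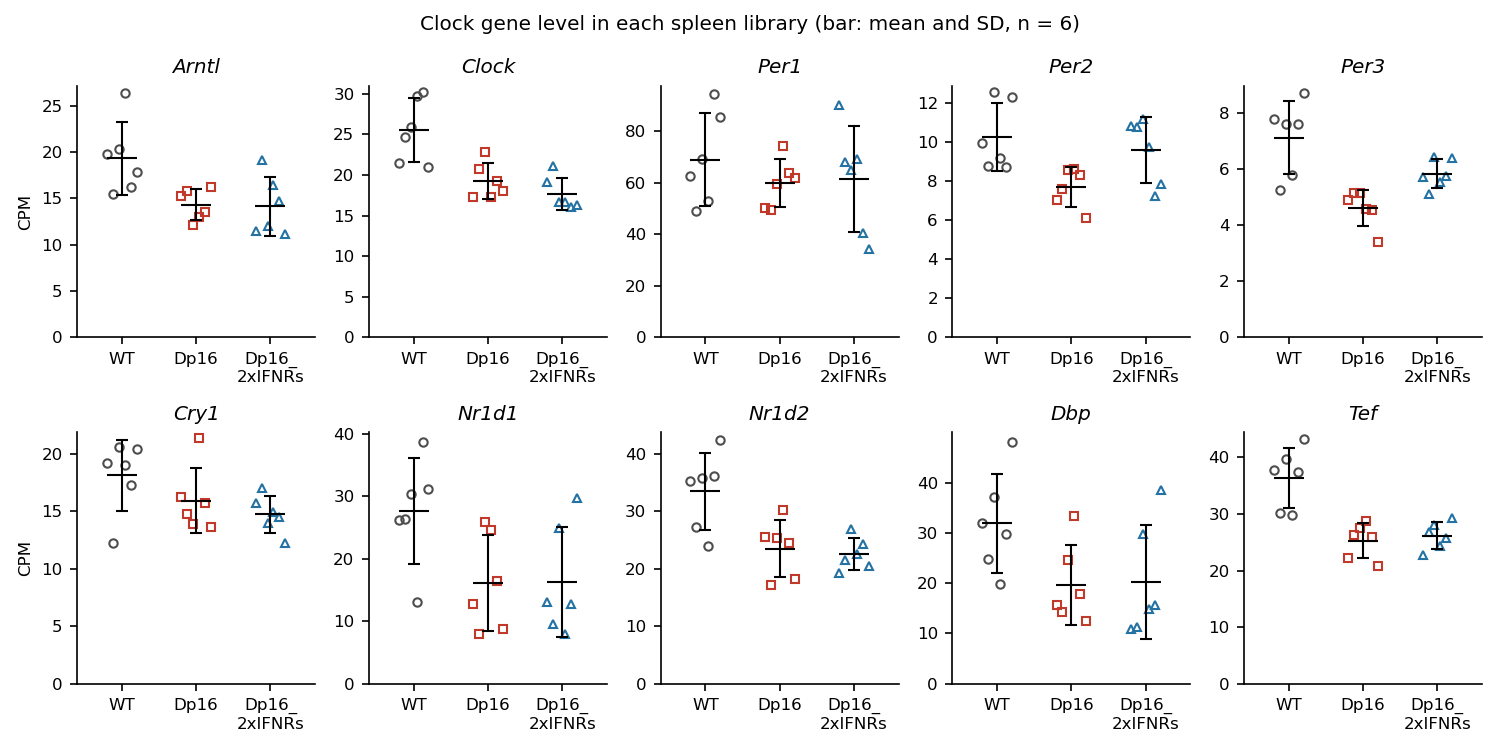
Level of each of the 10 clock genes in every library, in CPM (counts scaled to the library total with the TMM correction) on a linear axis from 0; points are libraries of WT, Dp16 and Dp16_2xIFNRs, and bars are the mean and SD of 6. Tef separates WT from both other genotypes, Per2 and Per3 separate WT from Dp16, and Nr1d1 and Dbp spread widely within each genotype.

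The comparison of Dp16 with WT asks whether Arntl and Clock moved against the Per, Nr1d and Dbp genes. All 10 log2 fold changes were negative, 6 genes fell and none rose. Phase itself was not tested, since the hour of collection is not known here. Arntl and Clock, Per2 and Per3, Nr1d2 and Tef were the genes that fell, by 24.4% (Clock) to 35.3% (Per3). By the same rule, an adjusted p below 0.05 in edgeR's quasi-likelihood test with Benjamini-Hochberg adjustment, 13.2% of the 18634 genes tested fell, 16.6% rose and 29.8% changed in either direction. The median log2 fold change of the 10 genes was -0.47, against -0.01 for all genes tested.

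Levels are given as CPM, counts scaled to the library total with the TMM correction. Among the activators, Arntl was at 15.5 CPM in the lowest, 18.8 in the median and 26.4 in the highest WT library, and at 12.1, 14.4 and 16.2 CPM in Dp16. The groups overlapped, with 4 of 6 Dp16 libraries below the lowest WT library. The log2 fold change was -0.43 ± 0.14 (SE, adjusted p = 0.0241). Clock was at 21.0, 25.3 and 30.2 CPM in WT and at 17.3, 18.7 and 22.8 in Dp16, a log2 fold change of -0.40 ± 0.11 (adjusted p = 0.00632). All but 1 of the Dp16 libraries were below the lowest WT library for Clock.

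Among the genes of the repressive arm, Per3 was at 5.26, 7.61 and 8.70 CPM in WT and at 3.40, 4.74 and 5.15 in Dp16, and these groups did not overlap. Its log2 fold change was -0.63 ± 0.15 (adjusted p = 0.00241). Per2, which like Per3 encodes a partner of the CRY proteins, was at 8.74, 9.54 and 12.5 CPM in WT and at 6.08, 7.94 and 8.61 in Dp16 (-0.41 ± 0.14, adjusted p = 0.0304), again without overlap. Per1, the remaining gene of the family, was not called (-0.21 ± 0.22, adjusted p = 0.533). It was at 49.1, 65.9 and 94.6 CPM in WT and at 49.6, 60.6 and 74.3 in Dp16. Cry1, whose protein represses the activator pair, was not called either, at 12.3, 19.1 and 20.6 CPM in WT and 13.6, 15.2 and 21.4 in Dp16 (-0.18 ± 0.13, adjusted p = 0.307). The fallen Per3 carries the D-boxes printed above and the fallen Tef the E-boxes, while Cry1 and Per1, with an E-box each, were not called. Of the other fallen genes, Arntl, Clock and Nr1d2 held none of these motifs, and Per2 had no window. A relation of motif to call was not tested.

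Nr1d2 was at 23.9, 35.5 and 42.4 CPM in WT and at 17.1, 24.9 and 30.2 in Dp16, a log2 fold change of -0.51 ± 0.14 (adjusted p = 0.00878). Nr1d1, its paralog with an overlapping role, was at 13.1, 28.4 and 38.6 CPM in WT and at 7.95, 14.7 and 25.8 in Dp16. Its log2 fold change of -0.78 ± 0.34 was larger than that of Nr1d2 but did not pass the threshold (adjusted p = 0.0989); with a number code that some sample descriptions share as a block, it did (-0.83 ± 0.30, limma adjusted p = 0.0454). All 6 Dp16 libraries were below the WT median for Nr1d1, and 3 were below the lowest WT library. Among the outputs, Tef was at 29.8, 37.6 and 43.3 CPM in WT and at 20.8, 26.2 and 28.8 in Dp16, with no overlap and a log2 fold change of -0.52 ± 0.10 (adjusted p = 0.000712). Dbp was at 19.9, 30.8 and 48.03 CPM in WT and at 12.5, 16.7 and 33.5 in Dp16 (-0.70 ± 0.34, adjusted p = 0.147) and was not called. In all, 3 of the 10 genes had groups that did not overlap, Per2, Per3 and Tef, where 4.34% of all genes tested were lower in this way and 12.8% did not overlap in either direction.

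The calls for Clock, Per3, Nr1d2 and Tef held with any 1 library left out. The call for Arntl was lost without WT replicate 3 (adjusted p = 0.0573), WT replicate 4 (0.0813), Dp16 replicate 3 (0.0551) or Dp16 replicate 4 (0.0598), and that for Per2 without WT replicate 3 (0.0876), WT replicate 6 (0.0855), Dp16 replicate 1 (0.0628) or Dp16 replicate 6 (0.0862). Without Dp16 replicate 4, Nr1d1 (-1.10, adjusted p = 0.0153) and Dbp (-1.01, adjusted p = 0.0318) passed the threshold as lower.

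In Dp16_2xIFNRs, compared with the same WT libraries, 4 of the 10 genes fell and none rose, where 14.2% of all genes tested fell, 17.3% rose and 31.4% changed in either direction. Clock (-0.53 ± 0.11, adjusted p = 0.00076), Nr1d2 (-0.57 ± 0.14, adjusted p = 0.00379), Tef (-0.48 ± 0.10, adjusted p = 0.00137) and Arntl (-0.44 ± 0.14, adjusted p = 0.020) were the genes that fell. All 10 log2 fold changes were again negative, with a median of -0.46, against -0.01 for all genes tested. Since the WT libraries are shared, this is no independent repeat of the comparison with Dp16. In the lowest, median and highest Dp16_2xIFNRs library, Clock was at 16.1, 16.7 and 21.1 CPM and Tef at 22.7, 26.3 and 29.2 CPM. Arntl was at 11.2, 13.3 and 19.2 CPM, with 1 library above the WT median, and Nr1d2 at 19.3, 22.02 and 27.0 CPM, with all 6 below it. Tef was the only one of the 10 genes whose range here did not overlap that of WT, where 5.75% of all genes tested were lower in this way and 12.6% did not overlap in either direction. Nr1d1 ran from 8.00 to 29.6 CPM with a median of 12.9 (-0.81 ± 0.34, adjusted p = 0.0846), and Dbp from 10.8 to 38.5 with a median of 15.3 (-0.71 ± 0.35, adjusted p = 0.141). Per2 was at 7.21, 10.3 and 11.2 CPM, with its median above that of WT, and Per3 at 5.11, 5.74 and 6.44. Cry1 gave -0.30 ± 0.13 (adjusted p = 0.0809) and Per1 -0.18 ± 0.22 (adjusted p = 0.606). The Arntl call was lost without WT replicate 4 (adjusted p = 0.0676), Dp16_2xIFNRs replicate 1 (0.051) or Dp16_2xIFNRs replicate 6 (0.0524). Without 1 library others of the 10 passed the threshold as lower: Cry1 without WT replicate 2 (adjusted p = 0.0152) or Dp16_2xIFNRs replicate 2 (0.0356), Per3 without WT replicate 2 (0.049), Nr1d1 without Dp16 replicate 4 (0.0384) or Dp16_2xIFNRs replicate 6 (0.0494), and Dbp without Dp16_2xIFNRs replicate 6 (0.0429).

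**Figure D2:**
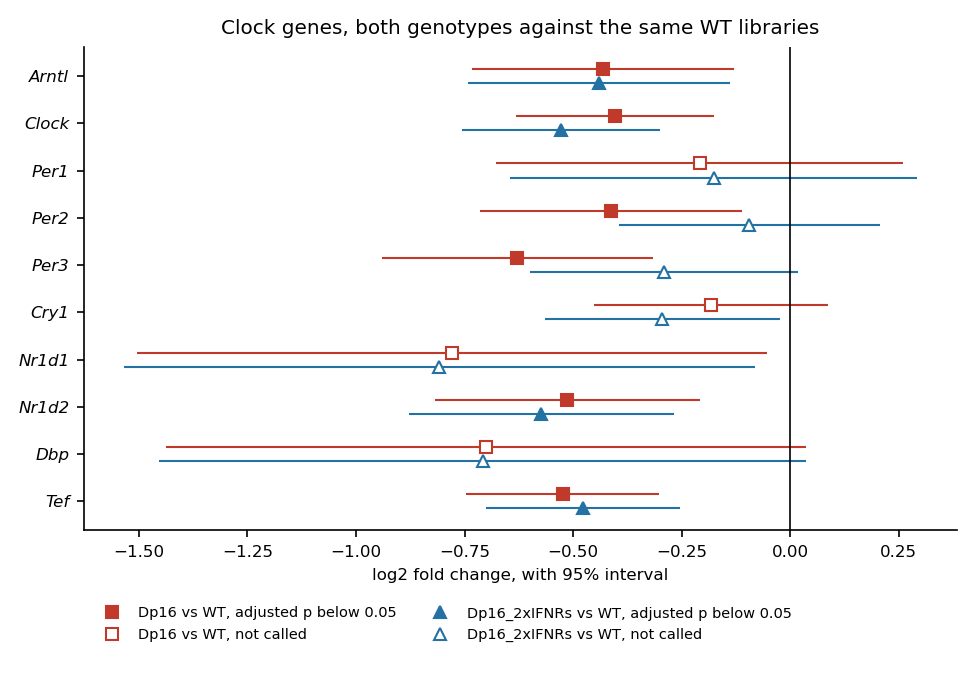
Log2 fold change of each clock gene in Dp16 and in Dp16_2xIFNRs against the same 6 WT libraries, with bars of the 95% interval; filled symbols are called at an adjusted p below 0.05. All symbols lie left of 0, and Nr1d1 and Dbp have the largest changes and the widest bars.

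The direct comparison of Dp16_2xIFNRs with Dp16 asks what the return of the interferon receptors to normal dosage changed. None of the 10 genes was called by edgeR, where 4 of 18634 genes were called (0.0215%), and DESeq2 called none of the 10 either. Unadjusted p-values were below 0.05 for 2 of the 10, Per2 (0.32 ± 0.14) and Per3 (0.34 ± 0.15), both higher in Dp16_2xIFNRs and both with an adjusted p of 1 in edgeR. The 95% intervals of the difference were wide for the genes that varied most, from -0.76 to 0.70 on the log2 scale for Nr1d1 and from -0.75 to 0.73 for Dbp. For Tef the interval ran from -0.18 to 0.27.

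A contrast between the arms was computed in each library as the mean log2 CPM of Arntl and Clock minus that of Per1, Per2, Per3, Nr1d1, Nr1d2 and Dbp. It averaged -0.03 ± 0.46 in WT, 0.11 ± 0.39 in Dp16 and -0.06 ± 0.40 in Dp16_2xIFNRs (SD, n = 6). The differences of 0.14 (Dp16 minus WT) and -0.03 (Dp16_2xIFNRs minus WT) were smaller than the SD within any genotype. For Arntl against Nr1d1, Dbp and Per3 alone the contrast averaged 0.09 ± 0.58, 0.40 ± 0.60 and 0.27 ± 0.78. Both differences from WT were then positive, at 0.31 and 0.18, where that of Dp16_2xIFNRs was -0.03 with all 8 genes. Arntl minus Nr1d1 averaged -0.47 ± 0.78, -0.03 ± 0.88 and -0.07 ± 1.02. These differences were also within 1 SD. The contrast of all 8 genes ran from -0.58 to 0.79 in WT, from -0.45 to 0.55 in Dp16 and from -0.59 to 0.48 in Dp16_2xIFNRs, so the 3 genotypes covered nearly the same range. Each arm by itself was lower: Arntl and Clock averaged 4.46 ± 0.20 on the log2 CPM scale in WT, 4.05 ± 0.09 in Dp16 and 3.97 ± 0.20 in Dp16_2xIFNRs, and the other 6 genes 4.49 ± 0.32, 3.94 ± 0.32 and 4.03 ± 0.24. These levels are a description, with no test. The mean difference between Dp16 and WT moved from 0.03 without WT replicate 6 to 0.30 without WT replicate 4. That between Dp16_2xIFNRs and WT turned positive without WT replicate 4 (0.14), Dp16_2xIFNRs replicate 3 (0.08) or Dp16_2xIFNRs replicate 6 (0.05).

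Between mice of 1 genotype, in contrast, Arntl and Nr1d1 varied in opposite directions. Pearson's r of their log2 CPM was -0.82 in WT (exact permutation p = 0.0597, two-sided, n = 6), -0.96 in Dp16 (exact permutation p = 0.00556) and -0.80 in Dp16_2xIFNRs (exact permutation p = 0.0667). Spearman's rho was -0.54 (exact p = 0.297), -0.94 (exact p = 0.0167) and -0.89 (exact p = 0.0333). There were 9 relations computed and adjusted together. None of the adjusted p-values was below 0.05: those of r were 0.1, 0.05 and 0.1. Without the 2 libraries farthest from the median, r was -0.85, -0.94 and -0.59. In WT, replicate 4 had the lowest Nr1d1 (13.1 CPM) and the highest Arntl (26.4 CPM). In Dp16, replicate 2 had the lowest Nr1d1 (7.95 CPM) with 15.7 CPM of Arntl, and replicate 3 the highest Nr1d1 (25.8 CPM) with the lowest Arntl (12.1 CPM).

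Nr1d1 and Dbp varied together, with r of 0.69 in WT (exact permutation p = 0.125), 0.91 in Dp16 (exact permutation p = 0.0111) and 0.88 in Dp16_2xIFNRs (exact permutation p = 0.0417), and rho of 0.54, 0.89 and 0.60 (exact p = 0.297, 0.0333 and 0.242). The adjusted p-values of r were 0.161, 0.05 and 0.0938. In Dp16_2xIFNRs the relation rested on the 2 libraries farthest from the median, since r without them was -0.19. It was 0.88 in WT and 0.96 in Dp16 without theirs. Arntl and Dbp gave r of -0.36 in WT (exact permutation p = 0.487), -0.86 in Dp16 (exact permutation p = 0.0236) and -0.58 in Dp16_2xIFNRs (exact permutation p = 0.233), with rho of -0.03, -0.94 and -0.43 (exact p = 1, 0.0167 and 0.419) and adjusted p-values of r of 0.487, 0.0708 and 0.263. Without the 2 farthest libraries these r were 0.13, -0.86 and -0.34, so the relation in WT did not hold.

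**Figure D3:**
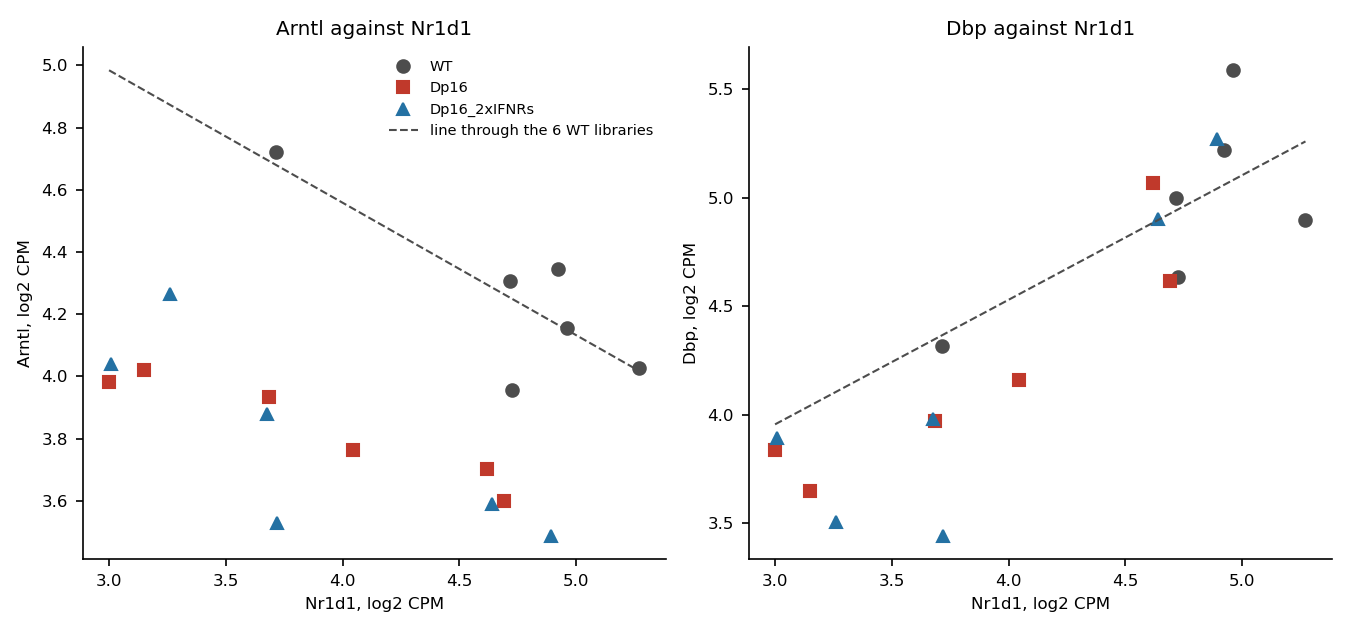
Arntl (left) and Dbp (right) against Nr1d1 in the 18 libraries, all in log2 CPM, with the line through the 6 WT libraries dashed. Arntl falls as Nr1d1 rises within each genotype, and all 12 Dp16 and Dp16_2xIFNRs libraries lie below the WT line for Arntl, whereas Dbp lies around one rising band.

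Set against the line through the WT libraries, extended to lower Nr1d1, Arntl was lower in the other genotypes. The 6 Dp16 libraries lay 0.78 below that line on average, on the log2 scale, from 0.59 to 1.00 below, and the 6 Dp16_2xIFNRs libraries 0.82 below on average, from 0.61 to 1.15 below. The distances are a description, and their size rests on WT replicate 4: with the line through the other 5 WT libraries, all at 26.3 CPM of Nr1d1 or more, it is an extrapolation for every Dp16 library and for all but 1 of Dp16_2xIFNRs, and the distances below it averaged 0.51 in Dp16 (0.45 to 0.60) and 0.55 in Dp16_2xIFNRs (0.19 to 0.84), with 6 of 6 libraries below the line in both. The B cell score, the mean log2 CPM of 16 B cell genes, moved with Arntl across the 18 libraries after removal of genotype and sex means (r = 0.74, a description over values from the same libraries). With Nr1d1 its r was -0.42, and the erythroid score gave -0.63 with Arntl and 0.26 with Nr1d1. Their part in the relation was not tested.

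With genotype and sex means removed in the same way, the 10 genes showed graded relations over the 18 libraries. Nr1d1, Nr1d2, Dbp, Tef and Per3 varied together, with r from 0.55 (Nr1d1 and Per3) to 0.86 (Nr1d1 and Dbp). Per1, Per2 and Cry1 did so with r of 0.51 to 0.64, but were not apart from the first 5: Cry1 had r of 0.58 with Nr1d2 and 0.47 with Tef, and Per2 0.49 with Tef and 0.44 with Nr1d2. Arntl and Clock had negative values with all of those 5 genes, from -0.25 (Clock with Per3) to -0.79 (Arntl with Nr1d1), and a value of 0.31 with each other. The first principal component held 47.0% of the variance of the 10 genes and separated Arntl (loading -0.24) and Clock (-0.21) from the other 8, of which Tef (0.40) and Nr1d2 (0.40) were highest and Per1 (0.15) lowest. The next component held 22.9%, with its largest loadings on Cry1, Per1 and Per2.

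**Figure D4:**
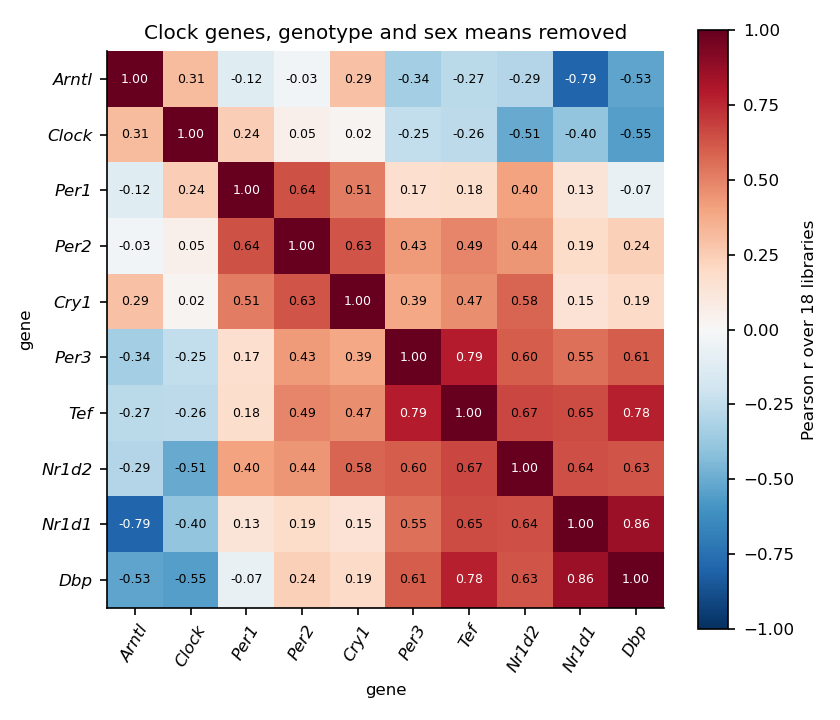
Pearson r between the 10 clock genes over 18 libraries, on log2 CPM with genotype and sex means removed; red is positive and blue negative. Per3, Tef, Nr1d2, Nr1d1 and Dbp form a red block, Per1, Per2 and Cry1 a smaller one with paler red links to it, and Arntl and Clock are blue against the first block.

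Some of the clock genes were among the closest partners of Dbp, though Per1 (-0.07), Cry1 (0.19) and Per2 (0.24) were not. Of 11802 genes with a mean log2 CPM above 1, Nr1d1 had the second highest r with Dbp (0.86), Tef stood at rank 11 (0.78) and Hlf, the remaining PAR bZIP gene, at rank 36 (0.71). The 5 other protein-coding genes most like Dbp were Tspan13 (0.87), Tmem59 (0.81), Ercc8 (0.80), Anapc16 (0.80) and Taf1d (0.80), and among the most opposite were Dpy19l3 (-0.86), Eef1aknmt (-0.81), Zeb2 (-0.81) and Utp20 (-0.81). For Arntl, Nr1d1 had the 14th lowest r of these genes (-0.79). The genes most like Arntl were Dvl2 (0.88), Rara (0.86), Tmcc3 (0.85), Mgrn1 (0.85) and Slc4a7 (0.85), and the most opposite were Dsn1 (-0.91), Adipor1 (-0.85), Nudt21 (-0.84), Eif5 (-0.83) and Usp45 (-0.83). All these values are over the same 18 libraries, with genotype and sex means removed.

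Npas2, the paralog of Clock that can pair with ARNTL in its place, varied widely at low counts. Its counts ran from 12 to 117 in WT, from 0 to 87 in Dp16 and from 5 to 106 in Dp16_2xIFNRs. The highest WT and Dp16 libraries, with 117 and 87 counts, were those with the lowest Nr1d1 of their genotype, and the Dp16 library at 0 was the one with the highest Nr1d1. In Dp16_2xIFNRs the highest, with 106 counts, was replicate 2, whose Nr1d1 of 9.54 CPM was not the lowest. Over the 18 libraries, with genotype and sex means removed, the r of Npas2 with Nr1d1 was -0.80 and with Arntl 0.52. Between genotypes Npas2 was not called (-0.30 ± 0.82 in Dp16, adjusted p = 0.834, and -0.20 ± 0.81 in Dp16_2xIFNRs, adjusted p = 0.892).

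Some libraries of different genotypes carry the same number code in their descriptions, whose meaning the labels do not state: 5 codes are shared, by 11 libraries. The code shared by WT replicate 4, Dp16 replicate 2 and Dp16_2xIFNRs replicate 4 marked the library with the lowest Nr1d1 in each genotype, at 13.1, 7.95 and 8.00 CPM. The code shared by Dp16 replicate 3 and Dp16_2xIFNRs replicate 6 marked the highest Nr1d1 in both, at 25.8 and 29.6 CPM. WT replicate 3 and Dp16_2xIFNRs replicate 3 were also near each other (30.3 and 24.9 CPM), as were Dp16 replicate 1 and Dp16_2xIFNRs replicate 2 (12.8 and 9.54 CPM). WT replicate 6 and Dp16_2xIFNRs replicate 5 were not, at 31.1 and 12.7 CPM. Over the 10 genes, libraries of different genotypes with the same code had a mean r of 0.28 over 7 pairs, against -0.02 for 101 pairs without. Over all genes these means were 0.05 and -0.004. Some of the 7 pairs share a library, and the difference was not tested. Within a code, the library of the other genotype was below WT in 38 of 40 values, 10 genes in each of 4 pairs, and for 8 of the 10 genes, all but Per1 and Per2, in 4 of 4 pairs. The values are not independent, since the genes vary together and WT replicate 4 was paired with both other genotypes. Its pair with Dp16 replicate 2 was the only one of WT with Dp16, and the remaining pairs were of WT with Dp16_2xIFNRs. These libraries are also in the main fit, so the tally is a description and no separate support. With these 11 libraries alone and the code as a term, Arntl was called lower in Dp16 (-0.72 ± 0.18, adjusted p = 0.0233) and in Dp16_2xIFNRs (-0.61 ± 0.14, adjusted p = 0.00973), with 1 and 6 of the 10 genes called lower, where 5.31% and 11.5% of all genes were. The sole direct comparison of Dp16 with WT within a code there used WT replicate 4, the WT library with the highest Arntl. That fit had no sex term, and libraries that share a code were of the same sex. With all 18 libraries and the code as a block in limma, 7 and 5 of the 10 were called lower, where 15.1% and 16.4% of all genes were, Nr1d1 among them in both (adjusted p = 0.0454 and 0.0302).

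The rest of the clock was followed in 30 further genes, of which 29 could be tested, and it did not share one direction. In Dp16 7 rose and 6 fell, with a median log2 fold change of -0.13, and in Dp16_2xIFNRs 6 rose and 8 fell, with a median of -0.16. All genes tested were mixed too: 16.6% rose and 13.2% fell in Dp16, and 17.3% rose and 14.2% fell in Dp16_2xIFNRs. Hlf fell in both, as its relative Tef did: it was at 2.15 to 9.69 CPM in WT, 0.977 to 3.26 in Dp16 and 1.26 to 4.60 in Dp16_2xIFNRs, log2 fold changes of -1.17 ± 0.36 (adjusted p = 0.0164) and -0.95 ± 0.36 (adjusted p = 0.0469). Cry2, the other cryptochrome gene, fell in both (-0.32 and -0.43, adjusted p = 0.0299 and 0.00377). Rora, whose protein activates Arntl at the element where the NR1D receptors repress it, was at -0.25 in Dp16 (adjusted p = 0.109) and fell in Dp16_2xIFNRs (-0.49, adjusted p = 0.00257). Ncor1, a corepressor used by the NR1D receptors, fell in both (-0.35 and -0.44, adjusted p = 0.0112 and 0.00201), while Hdac3, the deacetylase it recruits, rose (0.23 and 0.21, adjusted p = 0.017 and 0.024). Ciart, Nfil3, Bhlhe40 and Bhlhe41, which act as repressors, were called in neither.

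The largest change among the 30 was an increase. Noct, which encodes nocturnin, a rhythmic phosphatase, was at 7.35 to 16.3 CPM in WT, 23.7 to 44.8 in Dp16 and 26.6 to 41.9 in Dp16_2xIFNRs, with no overlap and log2 fold changes of 1.39 ± 0.19 (adjusted p = 5.7e-05) and 1.52 ± 0.19 (adjusted p = 3.2e-05). Over the 18 libraries, with genotype and sex means removed, the r of Noct was -0.47 with Arntl and 0.16 with Nr1d1. Btrc, a ubiquitin ligase subunit that marks PER proteins for destruction, rose (0.71 and 0.73, adjusted p = 0.00721 and 0.00595), and Fbxw11, its paralog, fell in Dp16 (-0.22, adjusted p = 0.0256). Timeless, which also acts at replication forks, rose in both (0.38 and 0.42, adjusted p = 0.00212 and 0.000899). Dyrk1a, a kinase gene that lies in the extra stretch of chromosome 16 and whose product can phosphorylate CRY2, rose by 0.46 in Dp16 (adjusted p = 9.25e-05) and 0.39 in Dp16_2xIFNRs (adjusted p = 0.000378). Gsk3a rose in both (0.24 and 0.21), Wee1 rose in Dp16 (0.36, adjusted p = 0.049), and Rai1 (-0.51 and -0.53) and Sin3a (-0.20 and -0.29) fell in both. Gsk3b (-0.28) and Csnk1d (-0.20) fell in Dp16_2xIFNRs.

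Genes that read out signals known to set clocks gave the counts below. The shares over all genes tested were 16.6% higher and 13.2% lower in Dp16, and 17.3% higher and 14.2% lower in Dp16_2xIFNRs. Of 10 glucocorticoid response genes 1 rose (Cebpd) and 1 fell in Dp16 (Nr3c1, the receptor, -0.47, adjusted p = 0.000938), and 3 fell in Dp16_2xIFNRs. Of 15 immediate early genes, which respond to fresh stimuli, 7 fell in Dp16 and 5 in Dp16_2xIFNRs and none rose. Of 8 temperature response genes none was called in Dp16 and 1 rose in Dp16_2xIFNRs.

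The cell makeup of the spleens moved with the genotype. Over all genes tested, 16.6% rose and 13.2% fell in Dp16, and 17.3% rose and 14.2% fell in Dp16_2xIFNRs. Of the B cell genes 16 of 16 fell in both genotypes, with a median of -0.67 in Dp16 and a summed level of 5381 to 7970 CPM in WT, 3805 to 4658 in Dp16 and 3834 to 4825 in Dp16_2xIFNRs. Of 23 erythroid genes 23 rose in both, from 6055 to 22382 CPM in WT to 24960 to 45543 and 22567 to 47311, and of 18 neutrophil genes 16 rose in both, from 544 to 2086 CPM to 3459 to 11251 and 3891 to 6431. Of 14 stromal and endothelial genes 8 fell in Dp16 and 9 in Dp16_2xIFNRs, and of 15 T cell genes 3 and 2 fell. The T cell genes had medians of -0.06 and -0.13. Their summed level overlapped, at 1375 to 1835 CPM in WT, 1457 to 1789 in Dp16 and 1284 to 1781 in Dp16_2xIFNRs, so no shift in T cells is read from these counts. All 12 megakaryocyte and platelet genes rose in both, from 335 to 564 CPM in WT to 572 to 1571 in Dp16 and 541 to 1074 in Dp16_2xIFNRs, as did all 16 cell cycle genes, from 1062 to 3113 CPM to 3188 to 4603 and 3062 to 4553. Of 12 red pulp macrophage genes 4 and 5 rose, and of 8 NK cell genes 3 fell in both. None of the B cell, erythroid, neutrophil, stromal or T cell genes in the table was at 0 throughout. In bulk tissue, fewer cells that express a clock gene and less of its RNA per cell cannot be told apart.

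When the erythroid and neutrophil scores were entered as terms beside genotype and sex, none of the 10 clock genes was called in either comparison with WT, and the median log2 fold change was 0.11 in Dp16 and 0.06 in Dp16_2xIFNRs. The median standard error grew to 0.45 and 0.44, from 0.14 without the scores, and over all genes 0 and 1 were called. With the B cell score as the term, the median was -0.43 and -0.34 with standard errors of 0.34 and 0.32, and none was called among the 10 or among all genes. Arntl turned to 0.48 ± 0.26 and 0.39 ± 0.24 in that fit, Nr1d1 stood at -1.91 and -1.92 and Clock at -0.18 and -0.31. None of the 3 scores overlapped between WT libraries and those of the other genotypes, so genotype and cell makeup cannot be told apart in these fits.

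**Figure D5:**
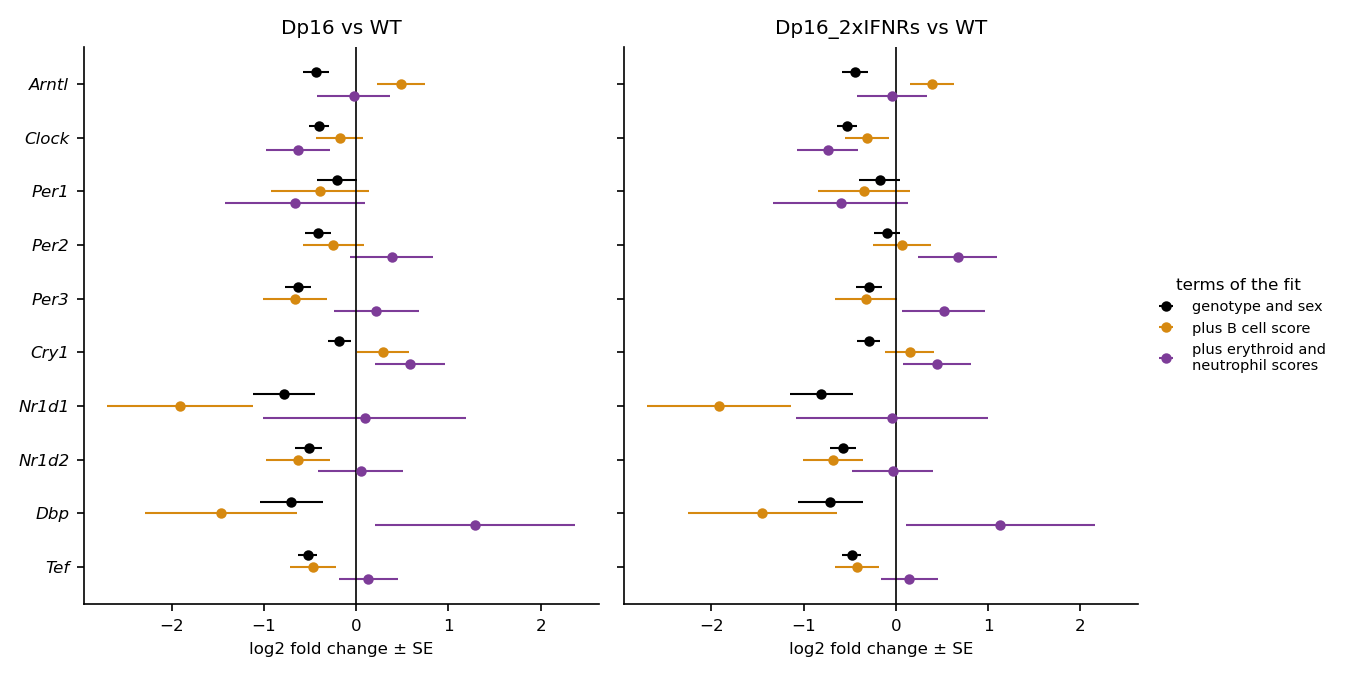
Log2 fold changes of the 10 clock genes against WT, with 1 standard error, under 3 sets of terms: genotype and sex, the same with the B cell score, and the same with the erythroid and neutrophil scores. The black points all lie below 0; with the scores the bars widen and the points scatter on both sides.

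No difference between the sexes was called: the genotype by sex term of edgeR gave 0 of 18634 genes in either comparison with WT, and no clock gene had an unadjusted p below 0.05. Libraries held 33998427 to 53021480 counts, and the ribosomal RNA-like gene model Gm42418 took 0.691% to 5.51% of them, most in WT replicate 4. Without the 4 libraries with the highest Gm42418 share the Arntl calls were lost (-0.29, adjusted p = 0.21, in Dp16 and -0.33, adjusted p = 0.12, in Dp16_2xIFNRs). WT replicate 4 was among these 4, and its omission alone also lost both Arntl calls. With the share as a term in edgeR over all 18 libraries, the Arntl call in Dp16 held (-0.43, adjusted p = 0.0279). In that fit 6 and 4 of the 10 genes were called lower, where 2446 and 2733 of 18634 genes were. Nr1d1 overlaps Thra by 1075 bases and Dbp overlaps Sphk2 by 737, both on the opposite strand, and no source says whether counting used strand, so reads of the 2 genes there may not be told apart. Thra was not called (0.07 and 0.11). Sphk2, at a mean of 50.1 CPM, was not called in Dp16 (-0.10, adjusted p = 0.285). It fell in Dp16_2xIFNRs (-0.18, adjusted p = 0.0371), the direction of Dbp, and its part in the Dbp counts was not tested. All of Per3 lies within Camta1 on the same strand, and Camta1 rose (0.51 and 0.64, adjusted p = 0.0195 and 0.00437), opposite to Per3.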

How the data were processed

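Poly(A) RNA of 18 spleens was sequenced on strand-specific, paired-end libraries, per the labels' protocols. The authors deposited raw whole-number counts per gene. The submitters' processing notes name the build GRCm38 and, without roles, HTSeq 0.6.1, HISAT2 2.1.0, bcl2fastq, SAMtools 1.5 and FastQC 0.11.5. They do not give the counting's strand setting. The deposited RPKM values equalled the authors' counts divided by library total and gene length in 11538 genes that had 100 or more counts in every library. Positions of genes are from GENCODE on GRCm38, and promoter sequences from RefSeq.

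The 10 genes were given, and the lists and tests were chosen with earlier results of these data known. Genes were filtered with filterByExpr by genotype and scaled by TMM, and edgeR 4.0.16 (R 4.3.3) fitted genotype and sex over all 18 libraries by quasi-likelihood, adjusted by Benjamini-Hochberg over 18634 genes and called below 0.05. CPM values use the TMM scaling, and log2 CPM a prior count of 2. Named genes are the 10, the clock genes of 6 lists that were called or singled out by that rule, and the 5 protein-coding genes with the highest and lowest r with Arntl and with Dbp. A gene that this rule picked is left out of the text, with none in its place. Cebpd and Nr3c1, and the genes that overlap a clock gene, were named after their values were seen. Correlations within a genotype used exact permutation tests (scipy 1.17.1). Alternatives were other scalings and filters, DESeq2 1.42.0, limma 3.58.1, blocks, added terms, subsets of libraries and omission of each library. Alternatives added after seeing the data were omission of the 4 libraries with the highest Gm42418 share, limma voom without a block, and the 11 libraries with a shared code. On simulated counts for Dp16 vs WT over 18634 genes, 59% of 100 genes changed by 1 on the log2 scale and 42% of 100 changed by 0.58 were recovered, with 4 false calls. Far fewer genes changed there than the 5553 called in the data. The Benjamini-Hochberg cut-off depends on that share, so this recovery does not measure the power of the fit reported. The labels do not state that replicates are separate litters, so p-values measure the spread between these animals. No library was a copy of another: counts of 45 pairs of the same genotype gave a chi-square of 35.7 to 205 for each degree of freedom. Intervals of 95% use 14 residual degrees of freedom.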

Additional observations from a re-analysis of the deposited data

Results flagged for a closer look

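Of 30 groups of 6 libraries (10 clock genes in 3 genotypes), 2 held a library far from the others, with a gap to its nearest neighbour, as a share of the range of the group, above the 95% critical value of Dixon's test; chance gives about 1 in 20. Dp16 replicate 6 was lowest for Per3, at 3.40 CPM, with a gap of 0.645 of the range. Dp16 replicate 4 was highest for Cry1, at 21.4 CPM, with a gap of 0.657. Without Dp16 replicate 6 the Per3 call held.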

How the results depend on the processing

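Leave-one-out aside, 104 values of the counts and of the contrast between the arms stayed within 1.5 times the count reported or within 1 SD, and 22 moved. With erythroid and neutrophil scores as terms, 0 clock genes were called in Dp16 vs WT (0 genes in all) and 0 in Dp16_2xIFNRs vs WT (1 in all); with the B cell score all 4 counts were 0. In males alone 2 clock genes were called in each comparison with WT (2525 and 3225 genes in all), and in females alone 0 (826 and 258); fewer libraries entered these fits. With the 11 libraries of shared codes 1 clock gene and 2569 genes were called in Dp16 vs WT. Dp16_2xIFNRs vs Dp16 gave 0 genes, from 4, in males, in females and with shared codes. On log2 RPKM with limma-trend 7 clock genes were called in Dp16_2xIFNRs vs WT; there the median of all genes moved to -0.13 in Dp16 and -0.12 in Dp16_2xIFNRs, and calls higher made up 36.1% and 36.9% of all calls, from 55.7% and 54.9%. Under upper quartile scaling they made up 43.4% and 43.7%.

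Against WT, the log2 fold changes of the 10 genes changed sign only in the fits with scores, among the settings run. Between Dp16_2xIFNRs and Dp16, where none was called, 3 to 7 of the 10 were negative across settings, from 6. With erythroid and neutrophil scores, Dp16 vs WT gave Per2 0.38, Per3 0.22, Cry1 0.58, Nr1d1 0.0938, Nr1d2 0.052, Dbp 1.29 and Tef 0.13, and Dp16_2xIFNRs vs WT gave Per2 0.67, Per3 0.52, Cry1 0.44, Dbp 1.13 and Tef 0.15. With the B cell score, Arntl was 0.48 and Cry1 0.29 in Dp16, and Arntl 0.39, Per2 0.0625 and Cry1 0.15 in Dp16_2xIFNRs. None of these was called, and the cause was not tested.

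With each library left out in turn, 4 to 7 clock genes were called in Dp16 vs WT, 3 to 6 in Dp16_2xIFNRs vs WT and 0 in Dp16_2xIFNRs vs Dp16, with 4790 to 5788, 4966 to 6076 and 3 to 4 genes in all. The contrast between the arms ran from 0.03 to 0.30, from -0.14 to 0.14 and from -0.28 to -0.06.

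The sample numbers are not known to pair animals. Pairs that share a number had a mean r of 0.02 (18 pairs), against -0.004 for others, and 6 of 18 libraries correlated best with their own number. A replicate block gave 6, 4 and 0 clock genes called, and 5534, 5796 and 4 genes in all.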
